A study of Mus musculus with 6 samples.

Results

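Sertoli cells are the supporting cells of the testis. They enclose the germ cells in cords and secrete the signals that direct the development of the other cell types of the fetal testis. The transcription factor *Sox9*, acting with *Sox8* and *Dmrt1*, maintains their identity, and anti-Müllerian hormone (*Amh*) and desert hedgehog (*Dhh*) are among the factors they release. Unlike pre-granulosa cells, the supporting cells of the fetal ovary, Sertoli cells keep dividing through fetal life.

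The Sertoli cells described here came from control XY gonads at embryonic day E15.5, measured with 10x Genomics single cell libraries, a method that tags each captured mRNA with a unique molecular identifier (UMI). Control animals carried wild type alleles of *Amh* and *Inhbb* (*Amh*+/+; *Inhbb*+/+, C57BL/6 background), and the series also holds gonads of control XX fetuses of the same genotype and of XY fetuses that lack both genes, with 2 libraries per group. The gonad pairs of an animal were pooled, dissociated and stored frozen before capture, and the methods call the libraries biological replicates without giving the number of animals in each. Only control XY libraries and, for comparison, control XX libraries were used.

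Cells were chosen by their transcripts. A cell of a control XY library with more than 2500 and fewer than 9000 genes, under 25% mitochondrial UMIs and under 20% *Hbb* UMIs was taken as a Sertoli cell if it held at least 200 CPM (counts per 1000000, the gene's UMIs scaled to that many UMIs of the cell) of *Cst9* and at least 500 CPM of *Amh*, under 4000 CPM of the Leydig cell enzymes *Cyp17a1* and *Cyp11a1* together, and under 5 UMIs of the germ cell gene *Dazl*. This gave 649 Sertoli cells, 219 in library 1 and 430 in library 2, of 15387 control XY cells that passed the filter and of 39350 cells in the series. They made up 3.21% (exact 95% binomial interval 2.81 to 3.66) and 5.02% (4.57 to 5.50) of the cells of their libraries, where the intervals cover counting error only. The median Sertoli cell held 25626 and 24517 UMIs from 5627 and 5516 genes, and all Sertoli cells together 6951457 and 13266935 UMIs. Mitochondrial UMIs were a median of 7.16% and 11.1% of a Sertoli cell's total. No cell barcode was shared between the Sertoli cells of the libraries.

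*Cst9* of the cells just inside the cut was at 224 and 210 CPM, and of the highest cells outside it at 194 and 199 CPM. For *Amh* the edge lay between 502 and 479 CPM in library 1 and between 504 and 496 CPM in library 2. Cells past the cut for *Cst9* but not for *Amh* numbered 33 and 56, and had 103 and 115 CPM of *Sox9* and 566 and 411 CPM of the interstitial factor *Tcf21*. Sertoli cells had 390 and 383 CPM of *Sox9* and 99.4 and 58.0 CPM of *Tcf21*. Another 8 and 42 cells passed for *Amh* alone.

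The 5 defining markers were all present. *Amh*, which causes the Müllerian ducts to regress, was at 2292 and 2172 CPM in the summed UMIs of the Sertoli cells, and *Cst9*, a cystatin of the testis, at 1245 and 1130 CPM, both as the rule requires. *Aard* was at 1315 and 1032 CPM, against 22.2 and 31.1 CPM in all other control XY cells. *Dhh*, the ligand that Leydig cell progenitors respond to, was at 230 and 220 CPM in Sertoli cells and at 1.99 and 4.72 CPM in the others. *Sox9* was 12.5-fold and 9.68-fold higher than in all other cells, which had 31.2 and 39.6 CPM. After each cell was thinned to 5000 UMIs, so that depth could not set the share, 72.1% and 82.3% of Sertoli cells had a *Sox9* UMI, against 5.15% and 7.61% of Leydig cells, which should lack it and serve as a measure of free RNA, and 13.7% and 16.6% of interstitial cells. The corresponding shares without thinning were 92.2% and 97.7% in Sertoli, 24.3% and 33.4% in Leydig and 32.1% and 38.2% in interstitial cells. Median depth was 42434 and 37298 UMIs in Leydig cells. *Foxl2*, the granulosa cell factor, had a UMI in 0.913% and 0.465% of Sertoli cells before thinning, and in 1.80% and 2.29% of Leydig cells. After thinning it had one in 0 of 219 Sertoli cells, which allows up to 1.67% of cells with a UMI at that depth, and in 1 of 430. *Aard*, *Dhh* and *Sox9*, which the rule did not use, were thus above the other control XY cells, and the name Sertoli cells is kept.

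Transcripts of other cell types were also read in Sertoli cells. The 9 interstitial markers summed to 647 and 498 CPM in Sertoli cells, and to 4285 and 4012 CPM in interstitial cells, gated by at least 200 CPM of *Tcf21* and *Pdgfra* together. The 7 Leydig markers were at 157 and 122 CPM, against 33397 and 31821 CPM in Leydig cells, and the 8 immune markers at 5.18 and 6.18 CPM. The interstitial sum was above the level of *Sox9*, at 390 and 383 CPM. Endothelial markers summed to 32.9 and 49.1 CPM and pericyte markers to 106 and 143 CPM, both under the 148 and 206 CPM and the 646 and 612 CPM of all other control XY cells. Germ cell markers, at 55.5 and 31.7 CPM, and epithelial markers, at 66.7 and 65.4 CPM, were above the other cells in both libraries, which had 27.1 and 22.8 CPM and 30.1 and 27.1 CPM. Erythroid markers were at 42.3 CPM in library 1, against 84.4 CPM in the other cells, and at 416 CPM in library 2, against 137 CPM, where a single cycling Sertoli cell held 4538 of the 5226 UMIs in the cycling cells. No doublet caller was run. The part of free RNA and doublets in these values was not tested.

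**Figure D1:**
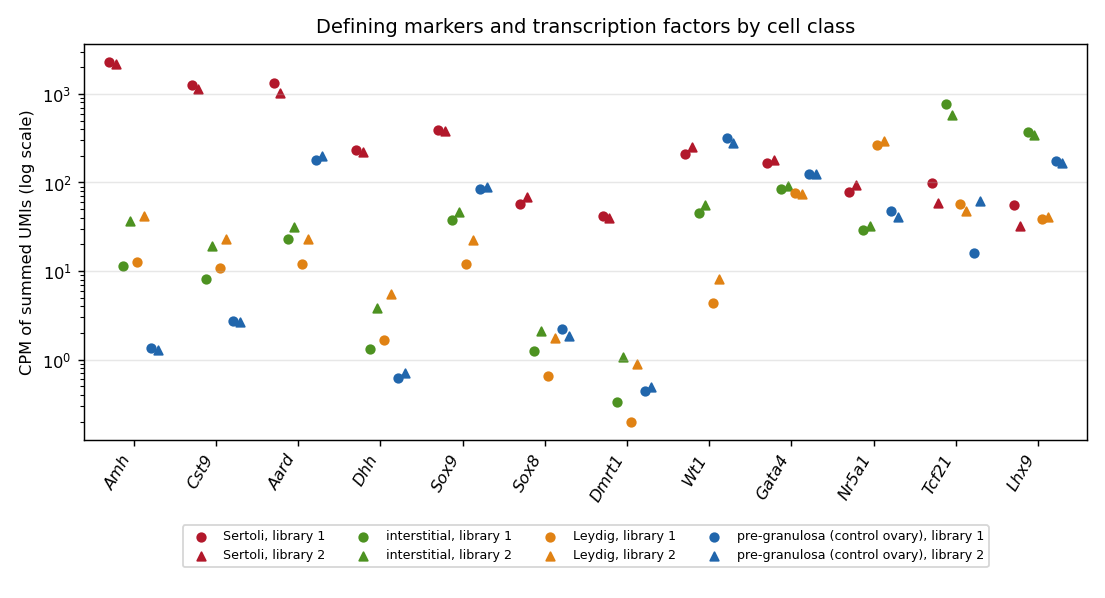
Levels of defining markers and transcription factors in Sertoli, interstitial and Leydig cells of the 2 control XY libraries and in pre-granulosa cells of the 2 control XX libraries. The y axis is CPM of summed UMIs on a log scale, and circles and triangles are libraries 1 and 2. *Amh*, *Cst9*, *Dhh*, *Sox8* and *Dmrt1* in Sertoli cells lie above the other classes in both libraries, while *Tcf21* and *Lhx9* are highest in interstitial cells.

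*Cst9* and *Cst12* lie in one cystatin cluster on chromosome 2, and *Dhh* stands alone on chromosome 15. Each was among the genes with the largest Sertoli cell level relative to the other control XY cells. Their promoters are shown because the cystatin neighbours share the Sertoli cell pattern in the testis and differ in the ovary. The sequences are the 250 bases before the RefSeq start on GRCm38.p6, in the gene's direction. *Cst9* is at chr2:148834897-148835146 and *Cst12* at chr2:148789115-148789364, both on the plus strand, and *Dhh* is at chr15:98898541-98898790 on the minus strand. Capitals mark the only match to the searched motifs in these 3 sequences, a GATA sequence of the *Cst9* promoter, 57 to 52 bases before its start. The promoter of *Cst8*, searched too and not printed, held the NR5A1 sequence 47 to 41 bases before its start.
Cst9: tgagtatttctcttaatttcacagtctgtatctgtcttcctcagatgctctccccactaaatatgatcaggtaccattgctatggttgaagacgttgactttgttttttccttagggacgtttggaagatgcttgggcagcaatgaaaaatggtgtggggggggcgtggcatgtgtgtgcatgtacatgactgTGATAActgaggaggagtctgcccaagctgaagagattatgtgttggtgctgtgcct
Cst12: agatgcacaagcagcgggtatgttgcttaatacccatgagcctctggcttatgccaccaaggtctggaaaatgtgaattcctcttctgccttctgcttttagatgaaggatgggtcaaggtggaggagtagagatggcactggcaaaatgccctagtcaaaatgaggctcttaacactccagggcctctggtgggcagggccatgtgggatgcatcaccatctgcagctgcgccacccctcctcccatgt
Dhh: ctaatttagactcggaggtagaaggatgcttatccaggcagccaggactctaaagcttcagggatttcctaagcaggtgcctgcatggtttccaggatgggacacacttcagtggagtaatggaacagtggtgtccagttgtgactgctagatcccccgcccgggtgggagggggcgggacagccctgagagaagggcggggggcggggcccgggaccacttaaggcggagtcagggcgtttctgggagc
The motifs searched, on both strands, were AAGGTCA for NR5A1, AACAAT for SOX factors and AGATAA or TGATAA for GATA factors. Over the 27025 promoters of the table, 4.05% held the first, 9.65% the second and 17.0% the last. Of the 340 genes described below as at least 4-fold higher in Sertoli cells, 234 were in the table by symbol, and 5 (2.14%), 13 (5.56%) and 26 (11.1%) held them. A match describes letters in this window and no more.

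The first comparison set Sertoli cells against all other control XY cells. The cells were chosen on this contrast, so it is a description without a test. Of 6525 genes with a mean of at least 20 CPM in Sertoli cells, *Amh* and *Cst9* left out, 340 were at least 4-fold higher than in the other cells of both libraries (5.21%). Conversely, 442 of 6435 genes with at least 20 CPM in the other cells were at least 4-fold lower in Sertoli cells of both libraries (6.87%). The median gene had a fold of 1.05.

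The 20 genes with the largest fold, by the lower of the libraries, were led by *Shbg*, the sex hormone binding globulin, at 52.8 and 55.9 CPM in Sertoli cells and 0.324 and 0.881 CPM in the other cells. *Foxq1*, a forkhead factor, followed with 97.2 and 83.8 CPM against 0.910 and 1.504 CPM. Among the 20 were secreted proteins, with *Ptgds*, the prostaglandin D synthase that amplifies the *Sox9* signal, at 1880 and 1851 CPM against 18.5 and 40.4 CPM. *Cst12* stood at 135 and 120 CPM and the defensin *Defb36* at 47.0 and 63.3 CPM. *Col9a3*, a collagen chain, was at 308 and 321 CPM against 2.61 and 6.03 CPM, and *Dsp*, the desmosomal protein desmoplakin, at 143 and 176 CPM against 1.20 and 3.40 CPM. *Hsd17b3*, which converts androstenedione to testosterone in the fetal testis, was at 251 and 256 CPM in Sertoli cells and 2.31 and 5.75 CPM elsewhere.

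The calcineurin homologues *Tesc* and *Chp2* were at 646 and 724 CPM and at 135 and 114 CPM. *Nt5e*, a nucleotidase of the cell surface, had 54.1 and 74.7 CPM, the membrane proteins *Tmem114* and *Tmem184a* 63.4 and 63.8 CPM and 383 and 395 CPM, and *Etd* 341 and 212 CPM. The clone-named transcripts RP23-158M12.2, RP23-250M11.3 and RP23-192A6.2 were at 84.6 and 91.4, 161 and 144, and 256 and 283 CPM, in that order. *Amh*, *Cst9* and *Dhh* complete the list. In every one of the 20 the other cells of library 2 had the higher level of the libraries, 1.27 to 3.16 times that of library 1, so that folds in library 1 were the larger.

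**Figure D2:**
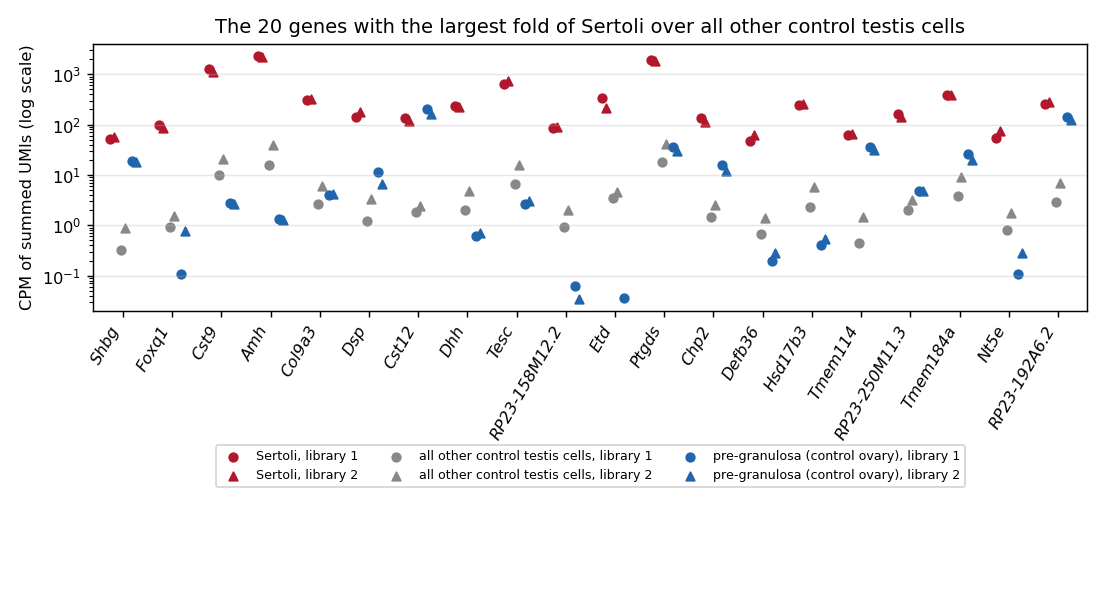
The 20 genes with the largest fold of Sertoli cells over all other control XY cells, ranked from left to right, with CPM of summed UMIs on a log scale. Red marks Sertoli cells, grey all other control XY cells and blue pre-granulosa cells of control XX, with circles for library 1 and triangles for library 2; values of 0 have no point, as for *Etd* in pre-granulosa library 2. Blue points reach the red ones for *Cst12* and come near them for *RP23-192A6.2*, *Tmem114* and *Shbg*.

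Grouped by role, Sertoli cell transcription factors divided. Of 27 listed in the files, 4 were at least 4-fold higher in Sertoli cells (*Sox9*, *Sox8*, *Dmrt1* and *Wt1*), or 25% of the 16 that reached 20 CPM there, and 5 at least 4-fold lower, with *Lhx9*, *Tcf21* and *Nr2f2* among them. Over all genes 5.21% were higher and 6.87% lower. *Sox8* was at 57.1 and 67.8 CPM, against 1.246 and 2.11 CPM, and *Dmrt1*, which guards the male fate, at 41.9 and 39.3 CPM, against 0.404 and 1.09 CPM. *Wt1*, needed for the supporting lineage, was 5.67-fold and 5.44-fold higher, at 209 and 249 CPM. *Gata4* at 164 and 182 CPM was only 2.09-fold and 2.17-fold higher, and *Nr5a1*, the steroidogenic factor shared with Leydig cells, differed by 1.02-fold and 1.04-fold. *Sry*, the sex-determining gene, was not analysed here.

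Secreted factors, the 43 of the list that were no gate gene, took 1.92% and 1.84% of all Sertoli cell UMIs, against 0.648% and 0.653% in the other cells. Of the 43, 31 reached 20 CPM in Sertoli cells and 18 of these (58.1%, against 5.21% of all genes) were at least 4-fold higher. In the other cells 25 reached 20 CPM, with 10 (40%, against 6.87%) at least 4-fold lower in Sertoli cells. The protease *Ctsl* was read at 4438 and 4416 CPM, 12.9-fold and 12.3-fold above the other cells, the defensin *Defb19* at 4191 and 3670 CPM and clusterin (*Clu*) at 3060 and 2911 CPM. Signals to other cells included *Pdgfa* at 498 and 555 CPM (14.2-fold and 13.5-fold), the germ cell factors *Gdnf* at 61.4 and 74.7 CPM and *Kitl* at 205 and 211 CPM, the activin subunit *Inhbb* at 182 and 208 CPM, and *Wnt6* at 734 and 715 CPM. *Inha*, the inhibin subunit, at 556 and 600 CPM, was 1.19-fold and 1.13-fold above the other cells, among which Leydig cells also transcribe it. On the lower side were *Inhba*, at 70.1 and 41.5 CPM against 346 and 326 CPM, *Cxcl12*, at 128 and 80.0 CPM against 745 and 617 CPM, and *Wnt4*, at 36.8 and 31.9 CPM against 235 and 236 CPM.

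Of 27 genes on the enzyme and membrane list, 15 reached 20 CPM in Sertoli cells. Of these, 13 (86.7%, against 5.21% of all genes) were at least 4-fold higher. Of 8 that reached 20 CPM in the other cells, 3 (37.5%, against 6.87%) were at least 4-fold lower (*Fgfr1*, *Fgfr2* and *Ngfr*). The list also holds the transcription factors *Rhox8* and *Mybl1*. *Hsd17b1*, a steroid dehydrogenase, was at 319 and 272 CPM (55.5-fold and 30.1-fold), the glutathione transferase *Gstm6* at 831 and 850 CPM, and the homeobox gene *Rhox8* at 139 and 113 CPM. *Fshr*, the receptor for follicle stimulating hormone, was low, at 5.47 and 4.75 CPM, with 0.0228 and 0.0912 CPM in the other cells. *Cyp26b1*, which degrades retinoic acid, was at 42.7 and 48.9 CPM and was 1.23-fold and 1.04-fold above the rest.

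Of 25 receptors and mediators of *Amh* and activin signals, 14 reached 20 CPM in Sertoli cells. Of these, 4 (28.6%, against 5.21% of all genes) were at least 4-fold higher (*Amhr2*, *Acvr1b*, *Tgfbr3l* and *Smad7*). Of 13 that reached 20 CPM in the other cells, 1 (7.69%, against 6.87%) was at least 4-fold lower (*Tgfbr3*). *Amhr2*, the receptor of anti-Müllerian hormone, was at 215 and 226 CPM in Sertoli cells and 7.45 and 10.6 CPM in the others. *Smad7*, an inhibitor of the pathway, was at 411 and 519 CPM (4.53-fold and 5.00-fold). *Id1*, a target gene of it, was at 273 and 243 CPM, under the 386 and 285 CPM of the other cells.

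Of 39 cord, junction and basement membrane genes, 25 reached 20 CPM in Sertoli cells. Of these, 11 (44%, against 5.21% of all genes) were at least 4-fold higher. Among the 11 were the tight junction gene *Cldn11*, the keratins *Krt8* and *Krt18* and the laminin receptor subunit *Itga6*. *Itga6* was at 372 and 518 CPM against 19.6 and 34.6 CPM. Of 18 that reached 20 CPM in the other cells, 3 (16.7%, against 6.87%) were at least 4-fold lower in Sertoli cells. Of 22 glycolysis genes 14 reached 20 CPM and 1 of these (7.14%, against 5.21% of all genes) was at least 4-fold higher, the hexokinase *Hk2*, at 70.9 and 74.7 CPM. Of 16 granulosa markers, *Wnt6* and *Kctd14* were at least 4-fold higher in Sertoli cells and *Wnt4* lower. *Kctd14* was at 845 and 872 CPM against 25.8 and 40.0 CPM.

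Some of these genes lie side by side. Of the 340 and both gate genes, 321 had a position by symbol in GENCODE M21 (GRCm38), and 45 of them (14.0%) lay within 100 kb of another, in 21 groups. Of the 5937 other placed genes at 20 CPM or more in Sertoli cells, 369 (6.22%) lay within 100 kb of one of the 321. *Jsrp1*, on the minus strand, lies beside *Amh*, on the plus strand, with their ends and not their starts facing each other. The pair spans chr10:80805243-80813498, and *Jsrp1* was at 51.9 and 42.2 CPM in Sertoli cells and 3.93 and 4.77 CPM elsewhere. *Cst12* and *Cst9* span chr2:148789361-148838738, *Defb19* and *Defb36* chr2:152576086-152612729, and *Cx3cl1* and *Ccl17* chr8:94772009-94812036. The glutathione transferases *Gstm1*, *Gstm2*, *Gstm6* and *Gstm7*, *Krt8* with *Krt18*, *Serpina5* with *Serpina3a*, and *Bex1*, *Bex2* and *Bex4* formed further groups. Members of the cystatin, defensin and glutathione transferase families resemble each other in sequence, and how reads that fit several of them were divided is not given in the sources used here, so the split of UMIs within a family is uncertain.

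Cycling Sertoli cells were told apart by the summed CPM of 20 genes of mitosis. Cells with at least 1000 CPM were taken as cycling, those under 300 CPM as non-cycling, and those between were left out. By this rule 43.8% (37.2 to 50.7) of the Sertoli cells of library 1 and 49.3% (44.5 to 54.1) of library 2 were cycling, or 96 and 212 cells, 69 and 125 were non-cycling and 54 and 93 lay between. Shares were 31.3% and 33.3% in interstitial cells, 9.52% and 7.25% in Leydig cells and 1.45% and 7.12% in pre-granulosa cells, so that both Sertoli cell values lay above those of these 3 classes. All 15 and 10 germ cells were classed as cycling, with median scores of 2049 and 2154 CPM. Division itself was not measured in any class, so the class describes these transcripts only. The difference in shares was not tested, since the class is a cut on a score, with 12 and 18 Sertoli cells between 800 and 1200 CPM. Pre-granulosa cells of library 2 that were cycling had a median of 10483 UMIs, against 20265 in the non-cycling ones. A single cut at 500 CPM gave a mean share of 58.2% over the libraries, in place of 46.6%, and thinning to 5000 UMIs 51.1%.

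**Figure D3:**
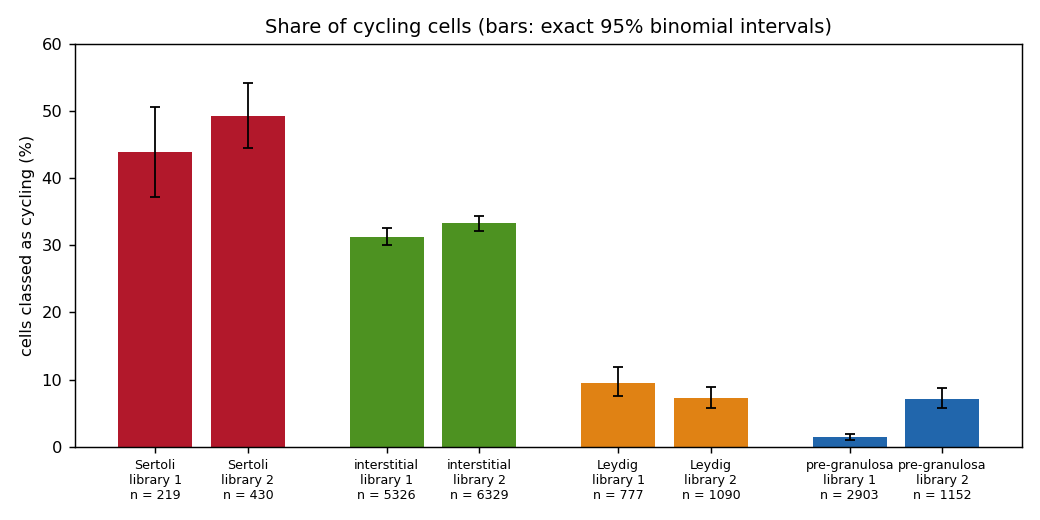
Share of cells classed as cycling, in percent, by cell class and library, with exact 95% binomial intervals that cover counting error only. Sertoli cells, at 43.8% and 49.3%, stand above interstitial cells at 31.3% and 33.3%, Leydig cells at 9.52% and 7.25% and pre-granulosa cells of control XX at 1.45% and 7.12%.

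Cycling Sertoli cells were compared with non-cycling ones of the same library to see which Sertoli cell genes differ between these classes. UMIs were summed per library and class and tested with edgeR's quasi-likelihood test, with the library as a block and with interstitial cells of the same libraries in the fit. Cycling cells held more UMIs, with medians of 31167 and 35230 against 22236 and 19959. Of 15593 genes tested, without the genes that set the classes and gates, 1577 were called at an adjusted p under 0.05 (10.1%), 1160 higher (7.44%) and 417 lower (2.67%) in cycling cells. Normalization by DESeq2's size factors gave 883 higher and 682 lower. Genes could enter this test through the interstitial sums, so the shares of all genes tested include genes low in Sertoli cells. With Sertoli cells alone in the fit 11150 genes were tested, 943 of them higher and 551 lower. Without the block 565 genes were called, and with all cells thinned to 5000 UMIs 458.

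The largest rises were genes of chromosome segregation and repair, which follow the score that set the classes. *Casc5*, a kinetochore scaffold, was at 96.2 and 113 CPM in cycling and 1.15 and 2.23 CPM in non-cycling Sertoli cells (log2 fold 5.93, SE 0.25, adjusted p = 4.28e-11, edgeR). *Aspm* (log2 fold 5.89) and *Nuf2* (5.74), of the spindle and the kinetochore, *Depdc1a* (5.39), the kinesins *Kif4* (5.34) and *Kif2c* (5.11), the cohesin acetyltransferase *Esco2* (5.30), *Melk* (5.29), the DNA glycosylase *Neil3* (5.29) and *Ckap2l* (5.17) followed. All 21 further mitosis genes rose, by a median of 4.17. So did 25 of 29 S phase genes (86.2%, against 7.44% of all genes tested), with a median of 1.02 over the list. The count of S phase genes was 19 without the block and 15 in thinned cells. The ribonucleotide reductase *Rrm2* was at 92.4 and 59.3 CPM in cycling and 5.20 and 7.05 CPM in non-cycling cells. *Ung*, a uracil glycosylase, fell instead, by 0.34 on the log2 scale, a call lost under 4 of the alternatives.

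Among regulators of the cycle, 4 of 18 rose (22.2%, against 7.44% of all genes tested) and 2 fell (11.1%, against 2.67%). The inhibitors *Cdkn2c* (log2 fold 5.49) and *Cdkn2d* (0.82), the pocket protein *Rbl1* (1.45) and *Cdk4* (0.21) were higher in cycling Sertoli cells, and the call on *Cdk4* was lost under 6 of the alternatives. *Cdkn1c*, the p57 inhibitor, was lower in the cycling cells of both libraries, at 54.5 and 42.2 CPM against 71.6 and 66.8 CPM (log2 fold -0.51, SE 0.10, adjusted p = 0.00309, edgeR), a call lost in thinned cells and without the block. *Ccnd2* was lower too, at 447 and 544 CPM against 545 and 661 CPM.

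Of 43 secreted factors tested, 15 were lower in cycling cells (34.9%, against 2.67% of all genes) and 2 higher (4.65%, against 7.44%). The median was -0.16 on the log2 scale over the list and 0.02 over all genes. The 15 included *Igfbp2*, *Igfbp5* and *Sostdc1*, which were at least 4-fold lower in Sertoli cells than in the other control XY cells. *Igfbp2* was above 0 in library 1 alone (0.22), and *Igfbp2* (0.36) and *Sostdc1* (0.78) turned above 0 without doublet-like cells, those that held markers of other cell types or the most UMIs. Together the 43, without gate genes, took 1.83% and 1.77% of the UMIs of cycling and 2.10% and 2.03% of those of non-cycling Sertoli cells. *Ccl17*, a chemokine, was at 85.7 and 69.3 CPM in cycling and 229 and 148 CPM in non-cycling cells, so that both libraries were lower (log2 fold -1.19, SE 0.09, adjusted p = 1.02e-07, edgeR). *Kazald1* was at 429 and 423 CPM against 562 and 603 CPM (log2 fold -0.42). *Serpina5*, a protease inhibitor, fell by 0.55, *Cst8* by 0.35, *Inha* by 0.31, *Dhh* by 0.25, *Pdgfa* by 0.24, *Ptgds* by 0.23 and *Defb19* by 0.18 on this scale. The call on *Defb19* was lost under 3 of the alternatives and those on *Serpina5* and *Pdgfa* under 2 each.

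*Dhh* was at 213 and 208 CPM in cycling and 258 and 258 CPM in non-cycling Sertoli cells, without overlap (adjusted p = 0.0148, edgeR). The call on *Dhh* was lost with a single limit at 500 CPM, with *Amh* of at least 1000 CPM and without the block. The 2 that rose were *Ptn* (log2 fold 0.65) and *Defb36* (0.55), the latter at 52.8 and 71.9 CPM against 45.0 and 44.9 CPM. *Ptn* turned to -0.16 with *Amh* of at least 1000 CPM, and the call on *Defb36* was lost under 4 of the alternatives, as was that on *Cst8*. *Clu*, at 2883 and 2861 CPM against 3496 and 3092 CPM, did not pass the test (log2 fold -0.14, SE 0.05, adjusted p = 0.0791, edgeR) but passed under 4 alternatives, and *Gdnf* (0.01, SE 0.10), *Kitl* (0.02, SE 0.06) and *Serpine2* (0.00, SE 0.04) did not pass. The number of lower factors was 17 with DESeq2's size factors, 9 in thinned cells, 6 with a single limit at 500 CPM and 0 without the block (edgeR), where 5 were lower at an unadjusted p under 0.05.

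Of 26 genes tested on the transcription factor list 22 did not pass. The 4 called higher were 15.4%, against 7.44% of all genes tested. *Mybl1* and *Rhox8*, also transcription factors, are on the enzyme and membrane list and are given below. *Sox9* was at 394 and 368 CPM in cycling and 382 and 439 CPM in non-cycling Sertoli cells, and the groups overlapped (log2 fold -0.09, SE 0.06). *Sox8* (-0.17, SE 0.12), *Dmrt1* (-0.07, SE 0.14), *Wt1* (-0.11, SE 0.06) and *Gata4* (0.12, SE 0.06) were not called either. Among the 4 called higher were *Nr2f2* (0.54), *Tcf21* (0.48) and *Nr4a1* (0.38, a call lost under 6 of the alternatives), and *Nr2f2* and *Tcf21* are interstitial markers. The 9 interstitial markers summed to 686 and 467 CPM in cycling and 509 and 418 CPM in non-cycling Sertoli cells, and their part in these calls was not tested. Without doublet-like cells, the calls on *Nr2f2* and *Tcf21* were lost, and *Tcf21* and *Nr2f2* turned below 0 when *Amh* of at least 1000 CPM was required. *Tcf21* and *Pdgfra* also set in part which cells were doublet-like, so leaving those cells out acts on *Tcf21* itself.

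The enzyme and membrane list, which also holds the transcription factors *Mybl1* and *Rhox8*, gave 2 of 25 higher and 3 lower. These were 8% and 12%, against 7.44% and 2.67% of all genes tested. *Mybl1*, a factor of the MYB family, was at 57.1 and 70.9 CPM in cycling and 23.1 and 29.3 CPM in non-cycling Sertoli cells (log2 fold 1.33, SE 0.14, adjusted p = 3.72e-06, edgeR). *Tesc* rose by 0.22, a call lost under 4 of the alternatives. *Rhox8* was at 95.9 and 81.4 CPM against 214 and 176 CPM, lower in both libraries (log2 fold -1.09, SE 0.12). *Hsd17b1* (-0.42) and *Aard* (-0.33) were lower as well. *Aard* was at 1157 and 932 CPM in cycling and 1552 and 1176 CPM in non-cycling Sertoli cells, so that library 1 cycling cells and library 2 non-cycling cells were alike, with the fall seen within each library.

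Receptors gave *Id1* (0.31) and *Smad4* (0.43) higher of 25 (8%, against 7.44% of all genes tested). Of 36 cord and junction genes, *Itga6* (0.30) and *Espn* (0.27) were higher (5.56%, against 7.44% of all genes tested). *Krt18* (-0.55), *Col9a2* (-0.37) and *Krt19* were lower (8.33%, against 2.67%). Glycolysis genes gave 3 of 22 lower (13.6%, against 2.67% of all genes tested), *Aldoa* (log2 fold -0.48, from 794 and 688 to 517 and 501 CPM), *Hk2* (-0.31) and *Gapdh* (-0.14). The call on *Hk2* was lost under 6 of the alternatives and that on *Gapdh* under 4, and 1 glycolysis gene was called lower with a single limit at 500 CPM, with *Amh* of at least 1000 CPM and without the block. The calls on *Espn* and *Col9a2* were lost under 5 each and those on *Smad4* and *Krt18* under 3 each. *Krt19* and the other epithelial markers called lower rested on library 2, where 1 non-cycling cell held 82 of 254 epithelial UMIs, and 4 erythroid genes called higher rested on the single cell named above.

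Genes whose log2 CPM averaged 5 or more gave falls of 2 kinds. *Igfbp6* (log2 fold -1.66), *Igfbp2* (-1.58), *S100a6* (-1.34) and *Ogn* (-1.32) were low in Sertoli cells and lower only in library 2, with *S100a6* at 7.58 and 9.82 CPM in cycling and 4.04 and 34.2 CPM in non-cycling cells. In library 1 alone these log2 folds were above 0, at 0.46, 0.22, 0.90 and 0.57. The others were lower in both libraries. They were *Mtfr1l*, a mitochondrial fission regulator, at 72.3 and 62.7 CPM against 129 and 108 CPM (log2 fold -0.76, SE 0.08, adjusted p = 2.82e-06, edgeR), *Nme4* (-0.73), *Htra1* (-0.72), *Acot1* (-0.68), *Aprt* (-0.67) and *Sostdc1* (-0.67). *Sostdc1* turned to 0.78 without doublet-like cells.

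Of the 340 genes that were at least 4-fold higher in Sertoli cells, 60 were called lower in cycling cells (17.6%, against 2.67% of all genes). Another 14 were higher (4.12%, against 7.44%), and the median was -0.11. With Sertoli cells alone in the fit 86 were lower (25.3%), without the block 6, and in thinned cells 22.

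**Figure D4:**
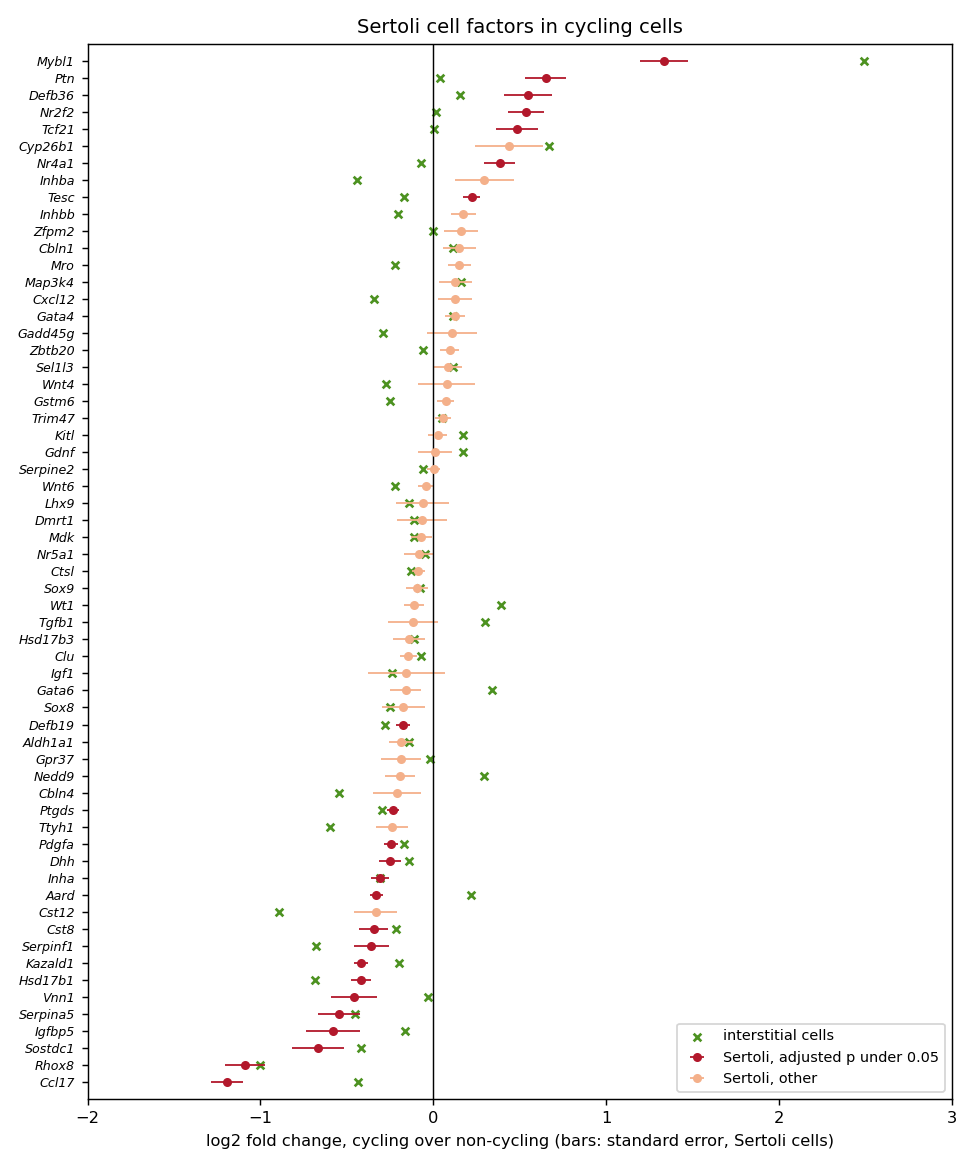
Log2 fold change of cycling over non-cycling cells for Sertoli cell transcription factors, secreted factors and enzymes that averaged at least 20 CPM in Sertoli cells, with members under that level, *Igfbp2* (-1.58) among them, not drawn. Circles with standard error bars are Sertoli cells, dark red where the adjusted p (edgeR) was under 0.05 and light where it was not, and green crosses are interstitial cells of the same fit. *Ccl17* at -1.19 and *Rhox8* at -1.09 are lowest and *Mybl1* at 1.33 highest of those drawn, while *Sox9*, *Wt1* and *Dmrt1* lie near 0.

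To ask which of these changes were particular to Sertoli cells, the cycling effect in them was tested against that in interstitial cells in the same fit. In interstitial cells 6938 genes were called (44.5%), 3842 higher (24.6%) and 3096 lower (19.9%), with many more cells in the sums. The effect differed for 470 of 15593 genes (3.01%), 159 with the higher log2 fold in Sertoli cells (1.02%) and 311 with the lower one (1.99%). The count fell to 256 with DESeq2, 112 in thinned cells and 18 without the block. Over the 340 genes at least 4-fold higher in Sertoli cells the median difference was -0.01, with 165 above 0 and 175 below. Of these genes 17 had the higher log2 fold in Sertoli cells (5%, against 1.02%) and 26 the lower one (7.65%, against 1.99%). Without the block these counts were 0 and 1. *Aard* differed, falling by 0.33 in Sertoli cells with a log2 fold of 0.22 in interstitial cells (difference -0.55, SE 0.06, adjusted p = 9.7e-05, edgeR). For *Wt1* the difference was -0.50, with -0.11 in Sertoli and 0.39 in interstitial cells, and for *Ccl17* it was -0.76. Both calls were lost in thinned cells and without the block, and that of *Ccl17* also with DESeq2 and with a single limit. Of the 43 secreted factors 4 differed, and the median difference over the 43 was -0.002. *Ccl17* had the lower log2 fold in Sertoli cells (2.33%, against 1.99% of all genes tested). *Cxcl12*, *Inhba* and *Ptn* had the higher one (6.98%, against 1.02%). The calls on *Cxcl12*, *Inhba* and *Ptn* were lost without doublet-like cells, where 2 secreted factors had the lower log2 fold, and with *Amh* of at least 1000 CPM, where 3 did. Interstitial markers moved with them, 5 of 9 with the higher log2 fold in Sertoli cells (55.6%, against 1.02% of all genes tested). *Inhba* was among these markers, and their part was not tested. *Dhh* (difference -0.11, adjusted p = 0.776) and *Rhox8* (-0.09, adjusted p = 0.913) did not pass, though both are low in interstitial cells, at 1.31 and 3.85 CPM and at 1.42 and 4.35 CPM.

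Cell cycle genes differed as well. *Kif23*, a kinesin of cytokinesis, rose by 3.18 in Sertoli and by 6.06 in interstitial cells (difference -2.88, adjusted p = 0.000594, edgeR), with 19.1 and 22.6 CPM left in non-cycling Sertoli cells. *Cdkn2d* rose by 0.82 against 2.30, and *Mybl1* by 1.33 against 2.49. *Ccnd2* fell by 0.24 in Sertoli and by 0.71 in interstitial cells. Of 29 S phase genes 11 had the lower log2 fold in Sertoli cells (37.9%, against 1.99% of all genes tested), *Ung* and *Mcm3* among them. Of 21 mitosis genes 4 did (19%). The S phase count was 0 without the block, 5 without doublet-like cells and 6 in thinned cells or with DESeq2. It was 16 with no filter on low counts, and the call on *Mcm3* was lost under 6 of the alternatives. Called or not, all 21 mitosis genes had a difference below 0, with a median of -0.85. So did 25 of the 29 S phase genes, with a median of -0.42 over the list.

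The third comparison set Sertoli cells of control XY against pre-granulosa cells of control XX, the supporting cells of the other sex at the same age. Pre-granulosa cells, 2903 and 1152 in number, were gated by at least 200 CPM of *Foxl2* and *Fst* together. Of 14715 genes tested with edgeR's quasi-likelihood test, gate genes left out, 7708 were called at an adjusted p under 0.05 (52.4%), 3729 higher (25.3%) and 3979 lower (27.0%) in Sertoli cells. Sertoli cells also held fewer transcripts of 10 of 16 dissociation response genes and more of 2. These summed to 8828 and 8083 CPM in Sertoli and 14477 and 15407 CPM in pre-granulosa cells, and the part of handling was not tested.

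The largest rises took in *Ddx3y* of the Y chromosome, at 65.2 and 71.0 CPM and at 0 UMIs in both ovary libraries, at least 618-fold higher with a floor of 3 UMIs per library. All 4 Y-linked genes of the list rose, and *Xist*, which coats the inactive X chromosome, was at 1739 and 1430 CPM in pre-granulosa cells and 1 UMI in each Sertoli cell library. *Etd* was at 341 and 212 CPM against 0.0366 and 0 CPM, and RP23-158M12.2 at 84.6 and 91.4 CPM against 0.061 and 0.0351 CPM. *Islr2* (log2 fold 9.95), *Hsd17b3* (9.23), endothelin (*Edn1*, 9.07), *Gsta2* (8.93), the factor *Mafa* (8.81), *Gdnf* (8.76) and *Dhh* (8.51) made up the rest. *Dhh* was at 230 and 220 CPM in Sertoli and 0.622 and 0.703 CPM in pre-granulosa cells (SE 0.19, adjusted p = 1.19e-10, edgeR), and *Gdnf* at 61.4 and 74.7 CPM against 0.171 and 0.141 CPM. *Edn1* was at 141 and 156 CPM against 0.305 and 0.246 CPM.

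Among the largest falls, *Calb1*, a calcium buffer, and the homeobox gene *Msx1* had no UMI in Sertoli cells and were at least 150-fold and 128-fold lower than in pre-granulosa cells. *Gng13*, a G protein subunit, was at 2.01 and 1.36 CPM in Sertoli and 873 and 982 CPM in pre-granulosa cells (log2 fold -9.09, SE 0.24). The Iroquois factor *Irx3* (-8.35), the long noncoding RNA *Rmst* (-7.75), *Tnfrsf19* (-6.89), the Wnt agonist *Rspo1* (-6.69) and *Runx1* (-6.35) followed. *Rspo1* was at 2.16 and 2.26 CPM against 260 and 226 CPM, and *Runx1* at 1.29 and 2.04 CPM against 175 and 129 CPM. Of 14 granulosa markers 12 were lower in Sertoli cells (85.7%, against 27.0% of all genes tested), with a median of -4.56 over the list. *Esr2* was higher, a call lost under 5 of the alternatives.

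Transcription factors gave 14 of 24 higher (58.3%, against 25.3% of all genes tested) and 7 lower (29.2%, against 27.0%). *Sox9* was at 390 and 383 CPM in Sertoli cells and still at 84.6 and 89.5 CPM in pre-granulosa cells (log2 fold 2.24, SE 0.14, adjusted p = 8.16e-08, edgeR). *Dmrt1* (6.54) and *Sox8* (5.00) differed more, with 0.439 and 0.492 CPM and 2.20 and 1.86 CPM left in pre-granulosa cells. *Nr5a1* (1.04) and *Gata4* (0.54) rose, the latter not called without testis library 2, and *Emx2* (-4.23) and *Lhx9* (-1.87), factors of the early gonad, and *Gata6* (-1.24) fell. *Wt1*, at 209 and 249 CPM against 319 and 278 CPM, did not pass (log2 fold -0.30, SE 0.15, adjusted p = 0.112). Without doublet-like cells the split was 10 higher and 11 lower, and that of the 9 interstitial markers turned from 7 higher to 3 higher and 6 lower. *Tcf21* and *Pdgfra*, among the 9, also set in part which cells were doublet-like. *Nr2f2* (0.86) was among those 7 and turned to -1.76 without doublet-like cells. Doublet-like cells were left out of the Sertoli cells only, and all 2903 and 1152 pre-granulosa cells stayed. The setting acts on 1 side of the comparison, so it cannot decide these directions.

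Secreted factors gave 25 of 42 higher (59.5%, against 25.3% of all genes tested) and 12 lower (28.6%, against 27.0%). These 42, without gate genes, took 0.509% and 0.536% of pre-granulosa cell UMIs, against 1.92% and 1.84% in Sertoli cells. *Ptgds* (log2 fold 5.92), *Defb19* (5.22), *Ctsl* (3.94), *Inhbb* (2.75), *Inha* (2.51) and *Pdgfa* (2.47) were higher. *Inhba* was at 70.1 and 41.5 CPM against 1.28 and 2.39 CPM (log2 fold 5.11, SE 0.31). *Inhba*, *Cxcl12* and *Sostdc1*, among the 25, were at least 4-fold lower in Sertoli cells than in the other control XY cells. *Inhba* is also an interstitial marker, and the part of interstitial transcripts in its level was not tested. *Kitl*, which germ cells of both sexes respond to, was lower, at 205 and 211 CPM against 846 and 804 CPM (log2 fold -1.90, SE 0.14), and *Wnt4* fell by 3.91, *Bmp2* by 5.22 and *Vegfa* by 2.42. *Wnt6*, at 734 and 715 CPM against 782 and 728 CPM, did not pass (log2 fold 0.03, SE 0.14).

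The cystatins of chromosome 2 parted. *Cst9*, a gate gene, was at 1245 and 1130 CPM in Sertoli and 2.76 and 2.67 CPM in pre-granulosa cells. Its neighbour *Cst12* was lower in Sertoli cells, at 135 and 120 CPM against 202 and 160 CPM (log2 fold -0.42, SE 0.16, adjusted p = 0.0381, edgeR), without overlap, a call lost under 5 of the alternatives. *Cst8*, which lies between them, was at 217 and 207 CPM against 258 and 239 CPM and did not pass (-0.15, SE 0.13). In the testis *Cst8* was also at 1262 and 1327 CPM in Leydig cells, which had 1.63 and 2.22 CPM of *Cst12*.

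The enzyme and membrane list gave 18 of 25 higher (72%, against 25.3% of all genes tested), *Hsd17b1* (7.15), *Cyp26b1* (6.53) and *Mybl1* (4.13) among them. *Epha7*, *Fgfr1* and *Fgfr2* were lower (12%, against 27.0%). *Cyp26b1* was at 42.7 and 48.9 CPM in Sertoli and 0.549 and 0.457 CPM in pre-granulosa cells. *Aard*, at 179 and 201 CPM in pre-granulosa cells, and *Gstm6*, at 424 and 548 CPM, were higher in Sertoli cells by 2.72 and 0.88.

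Receptors and mediators gave 7 of 25 higher (28%, against 25.3% of all genes tested) and 10 lower (40%, against 27.0%). *Amhr2* was lower in Sertoli cells, at 215 and 226 CPM against 357 and 387 CPM (log2 fold -0.67, SE 0.13, adjusted p = 0.00125, edgeR). *Smad7* (2.02) and *Acvr1b* (1.38) were higher. The targets *Id1* (-1.98), *Id2* (-2.31) and *Id3* (-2.01) were lower, *Id1* at 273 and 243 CPM against 913 and 1250.4 CPM. Cord and junction genes gave 16 of 37 higher (43.2%, against 25.3%), with *Gja1* (1.76), *Cldn11* (2.32) and *Col4a1* (1.02). Another 9 were lower (24.3%, against 27.0%), with *Krt8* (-0.95), *Krt18* (-1.78) and *Krt19* (-3.95). *Itga6* did not pass (0.22, SE 0.18). Glycolysis genes gave 4 of 22 higher (18.2%, against 25.3%) and 9 lower (40.9%, against 27.0%), *Hk2* (1.17) and *Ldha* (-1.10) among them.

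All 21 mitosis genes and 27 of 29 S phase genes (93.1%) were called higher, against 25.3% of all genes tested. Their medians were 3.74 and 1.67 on the log2 scale. In non-cycling cells alone 12 of the 21 were called higher, with a median of 1.17, and of the 29 S phase genes 22 were higher and 1 lower, with a median of 1.06. Regulators of the cycle gave 5 of 18 higher (27.8%, against 25.3% of all genes tested) and 10 lower (55.6%, against 27.0%). The inhibitor *Cdkn2c* (3.42) and the pocket proteins *Rbl1* (1.39) and *Rb1* (0.59) were higher. In non-cycling cells alone 1 of 17 regulators tested was called higher and 9 lower, and *Rbl1* (0.39) and *Rb1* (0.51) did not pass. The inhibitor *Cdkn2d* (0.34, SE 0.13, adjusted p = 0.0488, edgeR) was called higher as well, a call lost under 10 of the alternatives, and it turned to -0.09 in non-cycling cells alone. The inhibitors of division *Cdkn1b* (p27) and *Cdkn1c* were lower, *Cdkn1b* at 40.6 and 44.5 CPM against 646 and 702 CPM (log2 fold -3.90, SE 0.15) and *Cdkn1c* at 65.6 and 50.2 CPM against 1696 and 1745 CPM (-4.81, SE 0.19). Among non-cycling cells alone 5343 genes were called, 2540 higher and 2803 lower. Of the 340 genes at least 4-fold higher in Sertoli cells than in the other control XY cells, 286 were also higher than in pre-granulosa cells (84.1%), 23 were lower (6.76%) and 31 were not called. The Sertoli cell values are shared by both comparisons, so this count is a description.

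**Figure D5:**
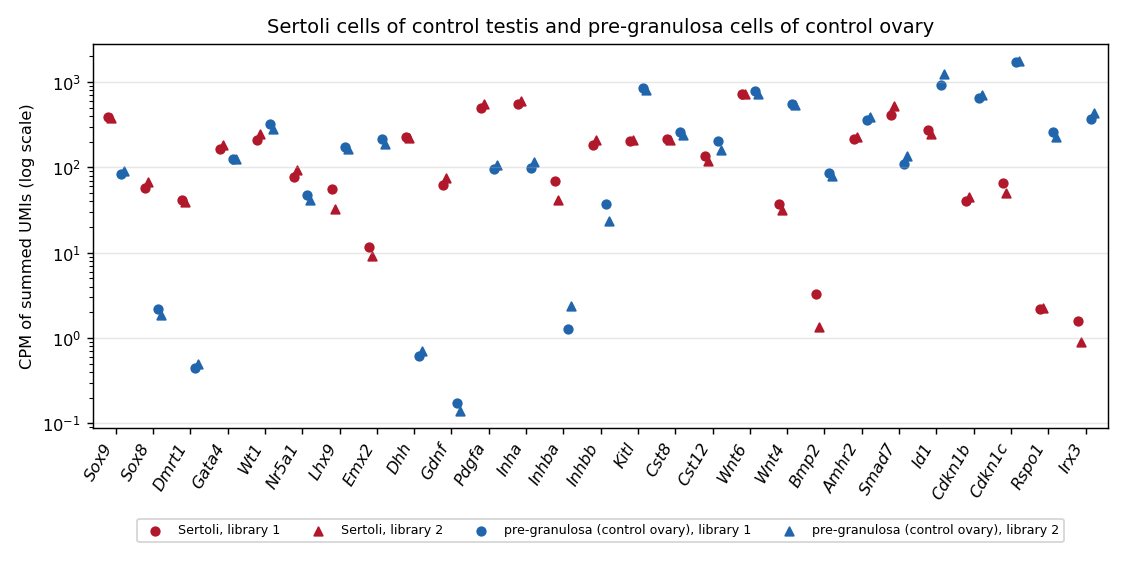
CPM of summed UMIs, on a log scale, of supporting cell genes in Sertoli cells of the control XY libraries (red) and pre-granulosa cells of the control XX libraries (blue), circles for library 1 and triangles for library 2. *Dhh*, *Gdnf* and *Dmrt1* stand far above the blue points in Sertoli cells (log2 folds of 8.51, 8.76 and 6.54), *Rspo1*, *Irx3* and *Cdkn1c* are higher in pre-granulosa cells, and *Wnt6* and *Cst8* lie together.

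Transcript levels also varied among the cells gated as Sertoli cells. In non-cycling cells thinned to 5000 UMIs, the variance over the mean across cells had a median of 1.15 and 1.12 over 1569 genes with a mean of at least 0.5 UMI. This ratio grows with the mean of a gene, so genes of different level cannot be ranked by it. The 10 genes with the largest ratio, by the lower library, were the mitochondrial *mt-Co3* (33.0 and 20.7), *mt-Co1*, *mt-Atp6*, *mt-Co2*, *mt-Cytb*, *mt-Nd1* and *mt-Nd4*, the nuclear noncoding RNA *Malat1* (29.1 and 17.5), and the imprinted *Meg3* (9.61 and 7.97) and *Dlk1* (6.37 and 6.07). The mean was 78.4 and 135 UMIs per cell for *mt-Co3*, 1.41 and 1.12 for *Meg3* and 0.681 and 0.480 for *Dlk1*. *Meg3* had a UMI in 29.0% and 30.4% of these cells and *Dlk1* in 21.7% and 16.8%. Of the Sertoli cell factors, the abundant *Defb19* (mean 24.9 and 21.4 UMIs) had ratios of 8.01 and 5.93, *Ctsl* (24.6 and 25.5 UMIs) of 5.55 and 7.55 and *Ptgds* (11.1 and 12.16 UMIs) of 3.99 and 4.36. Among less abundant factors, *Ccl17* (1.22 and 0.736 UMIs) had ratios of 4.51 and 2.74 and a UMI in 42.0% and 34.4% of non-cycling cells, *Sox9* (1.64 and 2.29 UMIs) had 1.85 and 1.80, and *Dhh* (1.52 and 1.42 UMIs) had 1.40 and 0.98. The part of mitochondrial share, depth before thinning, cell quality, free RNA and doublets in these ratios was not tested, for *Meg3* and *Dlk1* as well.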

How the data were processed

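Single cell mRNA libraries of E15.5 gonads, 2 per group, were analysed from the authors' deposited counts. The authors counted UMIs per gene symbol and cell barcode with Cell Ranger v3.0 (mm10), corrected barcode swapping and deposited raw counts for the barcodes called as cells, without normalization; the notes also name Seurat 4.0. The annotation release is not given in the sources used here. After the filter, control XY libraries 1 and 2 kept 182718495 and 210738206 UMIs.

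Cells were selected and gated as stated above, with Python 3.11.15 (numpy 2.4.6, scipy 1.17.1, pandas 2.3.3). Intervals are exact (Clopper-Pearson) at 95%. Members and gene lists were chosen with earlier results of these data known. Genes named are the 5 markers, the 20 with the largest fold at a mean of at least 50 CPM, the 10 largest rises and falls per edgeR comparison whose log2 CPM averaged 5 or more, members of the gene lists, and the 10 most variable genes; some of these genes are not reported here. *Jsrp1* and the clusters of neighbours were picked with their values in view, and TGATAA was added to the GATA letters after the promoters were read.

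UMIs were summed per library and class and tested in R 4.3.3 with edgeR 4.0.16 (filterByExpr, TMM, glmQLFit, glmQLFTest), with p-values adjusted by Benjamini-Hochberg over all genes tested; DESeq2 1.42.0 was an alternative. The cycling fit used 8 sums with library by cell type as a block, since both classes come from the same library, and left 2 residual degrees of freedom. Sertoli and pre-granulosa cells were compared library against library without a block. In the cycling fit the block removes the level of each library. Its p-values rest on how far the cycling difference varied between the 2 libraries, for Sertoli and interstitial sums jointly. Those against pre-granulosa cells measure only the spread between the libraries of a group. Fold changes are log2, and standard errors are the log2 fold divided by the square root of F. Both fits were first tested on simulated counts, with the spread set at 0.1 and not taken from the data. At a log2 change of 0.5 the cycling fit recovered 17% of changed genes and the pre-granulosa fit 43%. At a change of 1 they recovered 87% and 100%. False calls were 1.89% and 5.3% of calls. Genes that did not pass may therefore still differ by small amounts.

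Gene positions came from GENCODE M21 (GRCm38, which mm10 names) and promoters from RefSeq on GRCm38.p6. Alternatives changed the gates, the cell filter, doublet-like cells (at least 100 CPM of markers of other cell types, or the 5% with most UMIs), depth, cuts, block, tool, normalization, filter and libraries. Doublet-like cells were left out of the Sertoli cells only, not of the interstitial or pre-granulosa cells. Libraries of XY fetuses without *Amh* and *Inhbb* were not used here.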

Additional observations from a re-analysis of the deposited data

Results flagged for a closer look

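The effect of cycling differed between Sertoli and interstitial cells of the same libraries for 470 genes by the test of the difference (edgeR's quasi-likelihood test, Benjamini-Hochberg), and the named ones are given as the log2 fold of cycling in Sertoli cells minus that in interstitial cells.

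Among Sertoli cell genes, *Aard* differed by -0.55, *Ccl17* by -0.76, *Mybl1* by -1.16, *Tesc* by 0.39 and *Wt1* by -0.50. *Cxcl12* (0.47), *Inhba* (0.74) and *Ptn* (0.61), secreted factors that were at least 4-fold lower in Sertoli cells than in the other control XY cells, had the higher log2 fold in Sertoli cells, and none of the 3 was called without doublet-like cells.

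Among cell cycle genes, *Kif23* differed by -2.88, *Cdkn2d* by -1.48, *Ung* by -0.73, *Cdkn1b* by -0.59, *Mcm3* by -0.39 and *Ccnd2* by 0.47. Over all 21 mitosis genes the median difference was -0.85, and over 29 S phase genes it was -0.42.

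*Inhba* is also an interstitial marker. The interstitial markers *Nr2f2* (0.52) and *Tcf21* (0.48) had the higher log2 fold in Sertoli cells, and neither was called without doublet-like cells.

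Of the other named genes, *S100a6* differed by -1.46, with the opposite sign in library 1 alone, *Htra1* by -0.57, *Mtfr1l* by -0.41, *Gapdh* by -0.35, *Aldoa* by 0.22, *Id1* by 0.32, *Nr4a1* by 0.46 and *Krt19* by -4.80.

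These differences rest on the processing to unlike degrees. Of the 8 alternatives with a test, those on *Mcm3* and *Nr4a1* were lost under 6, those on *Inhba*, *S100a6* and *Tcf21* under 5, and those on *Ccl17*, *Cdkn1b*, *Cxcl12*, *Htra1*, *Id1*, *Nr2f2* and *Tesc* under 4. Those on *Aldoa*, *Krt19*, *Mtfr1l* and *Ptn* were lost under 3, that on *Wt1* under 2, those on *Aard*, *Ccnd2*, *Cdkn2d*, *Gapdh*, *Mybl1* and *Ung* under 1, and that on *Kif23* under none of them. *Nr2f2*, *Ptn* and *Tcf21* also changed sign under 1 further alternative, *Amh* of at least 1000 CPM.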

How the results depend on the processing

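Sertoli cells numbered 497 to 823 under the alternatives (649 as reported) and genes at least 4-fold higher 331 to 377 (340 as reported, 352 to 364 in single libraries). *Cst9* of at least 100 CPM (331) and *Amh* of at least 250 CPM (332) were added for these genes after seeing the data. The share of cycling Sertoli cells was 43.8% to 49.3% by library, 58.2% with 1 limit at 500 CPM and 51.1% in thinned cells. The cycling count was 565 with no replicate block and 458 in thinned cells. The count of differences from interstitial cells was 304 with 1 limit, 301 with *Amh* of at least 1000 CPM, 256 with DESeq2, 112 in thinned cells and 18 with no replicate block. The causes were not tested. Leaving out a library left the cycling fit without residual degrees of freedom, so those are values with no test and no count was made.

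Log2 folds that reversed were *Igfbp6* (-2.28 to 0.46 over single libraries), *Igfbp2* (-2.60 to 0.22, and 0.36 without doublet-like cells), *S100a6* (-1.79 to 0.90, and -1.98 to 0.95 as the difference from interstitial cells), *Ogn* (-1.56 to 0.57), *Sostdc1* (0.78 without doublet-like cells), *Tcf21* (-0.10, and -0.099 as that difference), *Nr2f2* (-0.052 and -0.060) and *Ptn* (-0.16 and -0.19) with *Amh* of at least 1000 CPM and, against pre-granulosa cells, *Cdkn2d* (-0.087 in non-cycling cells) and *Nr2f2* (-1.76 without doublet-like cells). Of the values of named genes, 669 kept direction and side of the threshold for cycling, 114 lost and 9 gained the call and 9 reversed; 161, 75, 0 and 4 did so for the difference from interstitial cells, and 905, 27, 1 and 2 against pre-granulosa cells.

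Replicate numbers did not pair testis and ovary libraries (r = -0.083 across 14722 genes). With the replicate block 6893 genes were called against pre-granulosa cells, in place of 7708, and single libraries left out gave 6274 to 7191. The smallest sum of the cycling comparison held the 69 non-cycling Sertoli cells of library 1.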
